A study of Homo sapiens with 6 samples.

Results

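The Frizzled genes FZD1 to FZD10 encode the cell-surface receptors for Wnt proteins, and the binding of the AP-1 subunits JUNB and FOSL2 around them is described here in HaCaT cells. The genes were chosen by name, 10 of the 19974 protein-coding genes of the autosomes and X, and their regions by position. Every row of the deposited region lists with at least 1 base within 20 kb of a gene body was taken, which gave 28 of 115764 regions. Of these, 12 were JUNB regions and 16 were FOSL2 regions.

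Binding was measured by chromatin immunoprecipitation sequencing in 3 JUNB and 3 FOSL2 libraries, each set made with its own antibody. HaCaT cells are keratinocytes of human skin that became immortal in culture. The labels name no treatment or genetic change, and all cells grew in DMEM with 10% serum and antibiotics. Each factor had 1 list of regions that stood for its 3 libraries together, so no value has a replicate error, the depth is unknown, and nothing was tested. The members were picked partly because FZD1 was known to hold a strong region, so counts and strengths below are descriptions. The lists hold binding and no expression, so they cannot show which Frizzled receptors HaCaT cells make. All 8 keratinocyte genes checked (KRT5, KRT14, TP63, ITGA6, COL17A1, KRT1, KRT10 and IVL) had a region of each factor within 20 kb, as had 84.9% (FOSL2) and 72.3% (JUNB) of all protein-coding genes.

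A Frizzled receptor crosses the membrane several times and binds a lipid-modified Wnt through an extracellular cysteine-rich domain. With the co-receptor LRP5 or LRP6 it recruits Dishevelled, which stabilises beta-catenin and switches on genes through TCF and LEF factors. Without these co-receptors, Frizzled proteins also signal to the cytoskeleton and set planar polarity, as in the orientation of hair follicles in mouse skin, where Fzd6 is required. JUNB and FOSL2 are a JUN-family and a FOS-family subunit of AP-1, a dimer that binds the sequence TGANTCA and is active in keratinocyte proliferation and differentiation.

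The strongest JUNB region of the family covered the start of FZD1, and the start is shown first because the JUNB summit lay inside it. The FZD8 and FZD9 starts are shown beside it because neither gene had a region of either factor within 20 kb. The sequences are from RefSeq (GRCh38.p14) and run 5′ to 3′ on the gene's strand from 250 bases before the transcription start to 30 after it. They lie at chr7:91264183-91264462 on the plus strand, chr10:35642267-35642546 on the minus strand and chr7:73433528-73433807 on the plus strand. Capitals mark a CCAAT box, which reads ATTGG where it lies on the opposite strand.
FZD1: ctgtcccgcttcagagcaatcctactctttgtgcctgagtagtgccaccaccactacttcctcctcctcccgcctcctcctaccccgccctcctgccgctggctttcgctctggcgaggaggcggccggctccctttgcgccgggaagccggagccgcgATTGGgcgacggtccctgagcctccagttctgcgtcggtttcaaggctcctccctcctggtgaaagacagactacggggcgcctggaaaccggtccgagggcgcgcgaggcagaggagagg
FZD8: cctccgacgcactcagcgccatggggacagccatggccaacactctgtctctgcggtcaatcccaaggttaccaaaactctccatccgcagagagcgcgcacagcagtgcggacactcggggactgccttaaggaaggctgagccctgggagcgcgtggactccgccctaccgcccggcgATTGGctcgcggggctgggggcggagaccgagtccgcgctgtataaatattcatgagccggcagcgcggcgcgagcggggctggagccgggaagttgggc
FZD9: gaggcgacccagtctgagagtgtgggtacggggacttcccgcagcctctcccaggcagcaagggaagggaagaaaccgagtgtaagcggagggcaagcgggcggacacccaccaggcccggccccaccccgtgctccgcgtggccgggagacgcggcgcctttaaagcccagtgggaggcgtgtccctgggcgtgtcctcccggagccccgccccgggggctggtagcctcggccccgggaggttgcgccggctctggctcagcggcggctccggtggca

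RefSeq windows, which run on to 50 bases after the start, were matched for 5 of the 10 genes: FZD1, FZD4, FZD5, FZD8 and FZD9. None of the 5 held TGANTCA on either strand, and none held TGACGTCA, the related site with a longer spacer. TGANTCA was present in 6.15% and TGACGTCA in 2.26% of the 22132 windows of protein-coding genes, where genes with several starts have several windows. The JUNB region at FZD1 is wider than the window, so its outer parts were not searched. A CCAAT box, searched after the sequences were seen, was present at FZD1, FZD4, FZD5 and FZD8 and in 34.6% of all windows. In FZD1 it began 91 bases before the start, in FZD4 75, in FZD8 70 and in FZD5 199. The GC box GGGCGG occurred in all 5 windows, once in FZD1 and 6 times each in FZD4 and FZD5, and in 56.3% of all windows. TATAAA occurred in FZD8 and in 9.46% of all windows.

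The share of G and C in the window was 65.7% at FZD1, 79.7% at FZD4, 77.0% at FZD5, 67.0% at FZD8 and 73.7% at FZD9, against a median of 62.3% over all windows. FZD1 and FZD8 were near the middle of all windows, at the 61.1st and 65.4th percentiles, and FZD9, FZD5 and FZD4 higher, at the 84.7th, 92.0th and 96.4th. FZD1, the start with the JUNB region, thus had the lowest share of the 5, and the starts of FZD5, FZD8 and FZD9 had no JUNB region within 20 kb of the gene. Among all windows, the 1559 with a JUNB-only summit inside had a median of 66.0% and held TGANTCA in 2.95% of cases. The 1540 with a shared JUNB summit had a median of 63.3% and held TGANTCA in 20.1%. FZD1, with 65.7% and no TGANTCA, was like most windows of both kinds in lacking the site, which describes the letters of this window only.

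Within 20 kb, JUNB and FOSL2 regions were about as frequent near the Frizzled genes as near protein-coding genes in general. This did not hold for FOSL2 within 10 kb, where 3 of the 10 genes had a region, against 76.9% of all genes. JUNB lay near 6 genes at that distance, against 64.0%. These shares are over genes of any length, and none within 10 kb was computed for short genes alone. FOSL2 had a region within 20 kb of 8 of the 10 genes, against 84.9% of all protein-coding genes, and JUNB of 6, against 72.3%. Regions that shared at least 1 base between the lists lay near 6 genes (62.6% of all genes), FOSL2-only regions near 6 (73.4%) and JUNB-only regions near 5 (39.2%). By regions, 6 of the 12 JUNB and 6 of the 16 FOSL2 regions were shared, against 78.5% and 41.1% of the whole lists. The JUNB-only region of FZD1, known when the family was picked, is counted in these JUNB values. FZD5 and FZD10 had a FOSL2 region and no JUNB region, a pattern seen in 15.1% of all genes. FZD8 and FZD9 had neither, as had 12.6% of all genes. Frizzled genes are mostly short, with 8 of the 10 under 10 kb. Among the 5658 protein-coding genes of that length 73.2% had a FOSL2 region and 59.3% a JUNB region, against 6 and 4 of the 8 Frizzled genes.

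**Figure D1:**
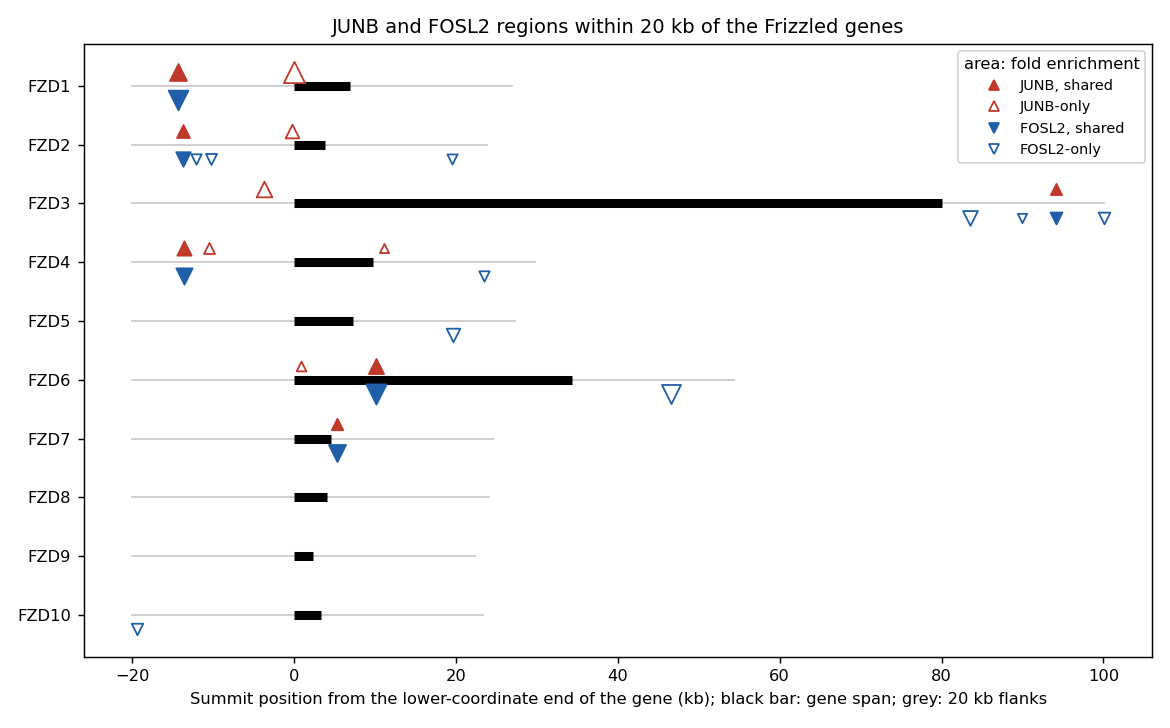
Each triangle is a region summit, placed by its distance in kb from the lower-coordinate end of the gene, with JUNB above and FOSL2 below the gene line, filled where shared and open where single-factor, and with an area that grows with fold enrichment. The JUNB-only summits at FZD1 and FZD2 sit at an end of the gene (3 and 233 bp), while the FZD8 and FZD9 lines are empty.

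Of the 6 JUNB-only summits 3 were within 1 kb of an end of the gene, at FZD1, FZD2 and FZD6. Of the 6 shared regions 1 was, at FZD7, and of the 10 FOSL2-only summits 0 were. Over all pairs of a protein-coding gene and a region within 20 kb of it, the shares were 25.1% for JUNB-only, 10.1% for shared JUNB and 7.08% for FOSL2-only summits. By genes, 3 of the 10 Frizzled genes had a JUNB-only summit within 1 kb of an end, against 13.4% of all genes, 1 had a shared one, against 14.8%, and 0 had a FOSL2-only one, against 13.3%. The median distance from summit to nearer end was 1.08 kb for the JUNB-only, 13.6 kb for the shared JUNB and 12.3 kb for the FOSL2-only regions. Over all genes these medians were 7.93, 12.9 and 14.0 kb. The JUNB-only counts and median include FZD1, whose region was known when the family was picked, so they are no result about the receptors. Within 10 kb of the gene body, FOSL2 had 4 of its 16 regions, at 3 genes, and JUNB had 7 of its 12, at 6 genes. At that distance 76.9% of all genes, long ones included, had a FOSL2 region and 64.0% a JUNB region. In the 6 shared pairs the summits of the factors were 4 to 30 bp apart, with a median of 19.5 bp.

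FZD1, FZD2 and FZD7 form the subfamily with the closest sequences and are widely used receptors of beta-catenin signalling. FZD1 (chr7:91264433-91271326, plus strand) had 2 JUNB regions and 1 FOSL2 region. The JUNB-only region, chr7:91263821-91264982, was 1162 bp wide and had its summit 3 bp after the transcription start. Its fold enrichment, the authors' ratio of signal over background for the region, was 12.6, against a median of 3.45 over the 8620 JUNB-only regions. That value ranked 5 among the JUNB-only regions and 108 among all 40061 JUNB regions. By −log10 q, which was 276, it ranked 1 among the JUNB-only regions and 2 in the whole list. The FZD1 start thus ranked higher by −log10 q than by fold enrichment.

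The 100 JUNB regions nearest to it in fold enrichment, none above 13.1, had a median −log10 q of 88.3, and 1 of them had a higher value than FZD1. Their median width was 878 bp. Of these 100 regions 96 overlapped a FOSL2 region and 4 did not, while 78.5% of the whole JUNB list overlapped one. JUNB regions without FOSL2 were thus a minority in the list, and a smaller one at this strength. The nearest FOSL2 region lay 13.4 kb from the edge of the JUNB-only region at FZD1.

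That FOSL2 region belonged to a shared pair upstream of FZD1, at chr7:91249578-91250468 for FOSL2 and chr7:91249615-91250476 for JUNB. The pair had summits 25 bp apart, 14372 bp (FOSL2) and 14397 bp (JUNB) before the start, and 854 bp in common. The fold enrichment was 10.8 in the FOSL2 list, the 93.5th percentile, and 7.94 in the JUNB list, the 87.9th percentile. Beyond 20 kb the next regions were far off, at 86.0 kb for FOSL2 and 147 kb for JUNB. The FZD1 neighbourhood therefore held a strong JUNB-only start and a strong shared site, and no other region within 20 kb.

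FZD2 (chr17:44557484-44561262) also had a JUNB-only region at an end, chr17:44556964-44557548, with the summit 233 bp outside the gene. Its fold enrichment of 5.22 was at the 57.5th percentile of the JUNB list and ranked 853 among the JUNB-only regions. FZD2 and FZD1 thus shared the position of this region and differed in its strength. A shared pair lay near FZD2 with summits 13709 bp (JUNB) and 13736 bp (FOSL2) from the same end and fold enrichments of 4.66 (JUNB list) and 5.89 (FOSL2 list). The 3 FOSL2-only regions of FZD2 were weak, with fold enrichments of 2.86, 2.99 and 3.41, none above the 17.1st percentile of the FOSL2 list. They lay 10256 to 15712 bp from an end.

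FZD7 (chr2:202033855-202038441), a receptor with roles in stem cell maintenance in several tissues, had a single shared pair and no single-factor region. The summits were 645 bp (FOSL2) and 659 bp (JUNB) beyond the upper end of the gene. The FOSL2 region had a fold enrichment of 8.09, at the 75.2nd percentile of its list, and the JUNB region 3.65, at the 25.7th. The JUNB region, 279 bp wide, lay wholly inside the FOSL2 region of 741 bp. FZD7 was thus the 1 member whose shared pair lay within 1 kb of an end.

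**Figure D2:**
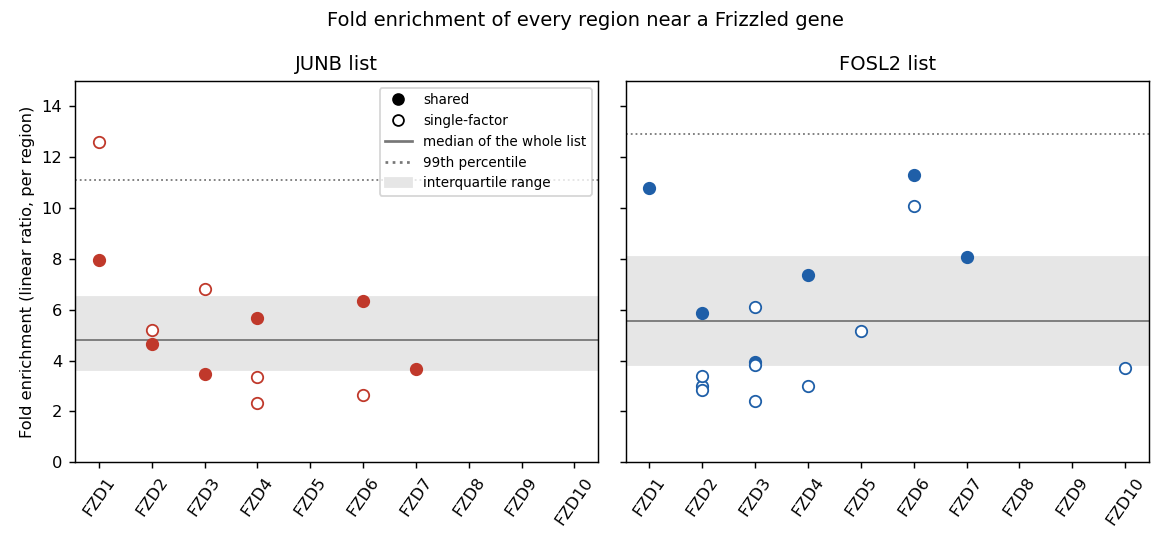
Each point is the fold enrichment (linear ratio, from the authors' lists) of 1 region within 20 kb of the gene named on the x axis, filled where shared and open where single-factor; the line, band and dotted line give the median, interquartile range and 99th percentile of the whole list. FZD1 at 12.6 is the only JUNB point above the dotted line, and no FOSL2 point reaches it; levels are read within a panel only.

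FZD5 and FZD8 are close relatives of each other that signal mainly through beta-catenin. FZD5 (chr2:207762598-207769906, minus strand) had 1 FOSL2-only region, with a fold enrichment of 5.16 and its summit 12369 bp before the start. The nearest JUNB region lay just outside the limit at 22.1 kb, where it was shared and had a fold enrichment of 8.05 for JUNB. With a slightly wider limit FZD5 would therefore count among the genes with a JUNB region. FZD8 (chr10:35638247-35642296, minus strand) was farthest from JUNB of all members, with the nearest region at 90.8 kb, and its nearest FOSL2 region was at 31.3 kb.

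FZD4, FZD9 and FZD10 form a further subfamily. FZD4 (chr11:86945679-86955395, minus strand), which also binds norrin in retinal vessels, had the most JUNB regions of the family, 3. A shared pair had fold enrichments of 5.66 (JUNB list) and 7.38 (FOSL2 list), and its summits were 8 bp apart. The summits lay 13571 bp (JUNB) and 13579 bp (FOSL2) from the lower end of FZD4, and inside PRSS23, the gene of a secreted serine protease, and its antisense RNA gene. A JUNB-only region of 3.36 lay in PRSS23 as well. The other JUNB-only region lay 1353 bp before the FZD4 start and inside the divergent RNA gene FZD4-DT. It was the weakest JUNB region of the family at 2.32, the 1.08th percentile of the list. The FOSL2-only region, 13767 bp before the start, had a fold enrichment of 3.00.

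FZD9 (chr7:73433778-73436120, plus strand), a gene of the interval deleted in Williams syndrome, had its nearest regions at 30.7 kb for FOSL2 and 30.9 kb for JUNB. These shared a site and had fold enrichments of 9.01 (FOSL2 list) and 4.96 (JUNB list). FZD10 (chr12:130162464-130165740) had 1 FOSL2-only region of 3.71, whose nearer edge was 19339 bp from the gene, just inside the limit. A stronger FOSL2-only region, of 6.95, lay just outside at 21.0 kb, and the nearest JUNB region was at 36.1 kb. Neither gene thus had a region nearer than 19339 bp.

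FZD3 and FZD6 are the receptors best known for planar polarity, and both are long genes of chromosome 8. FZD6, 34373 bp long, had the strongest FOSL2 region of the family. It was shared, lay inside the gene with both summits about 10.1 kb from the lower end, 4 bp apart, and had fold enrichments of 11.3 (FOSL2 list, the 95.8th percentile) and 6.34 (JUNB list, the 72.9th). A FOSL2-only region of 10.1 stood 12138 bp beyond the upper end and ranked 1230 among the 44553 FOSL2-only regions. The nearest JUNB region to it was 35.6 kb away. A weak JUNB-only region of 2.64 lay inside FZD6, 807 bp from the lower end. Within their own lists the FOSL2 regions of FZD6 stood at the 95.8th and 89.9th percentiles and its JUNB regions at the 72.9th and 4.47th. FZD6 had 1 shared region, inside the gene.

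FZD3, 80047 bp long, had 4 FOSL2 and 2 JUNB regions, none of them inside the gene. A JUNB-only region with a fold enrichment of 6.83 ranked 267 in its class, but its summit was 192 bp from the end of FBXO16, an F-box protein gene, and 3791 bp from FZD3. The other regions lay beyond the upper end. There, FOSL2-only regions of 6.12, 2.41 and 3.82 stood 3466, 9933 and 20021 bp away, and a shared pair of 3.95 (FOSL2 list) and 3.48 (JUNB list) stood 14120 bp (FOSL2) and 14150 bp (JUNB) away. The farthest, whose edge was 19766 bp from FZD3, was nearer to an end of EXTL3, at 13457 bp. FZD3 and FZD6 therefore differed in where the regions lay, outside FZD3 and partly inside FZD6.

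By their highest JUNB fold enrichment the genes ran from FZD1 (12.6) through FZD3 (6.83), FZD6 (6.34), FZD4 (5.66) and FZD2 (5.22) to FZD7 (3.65). The FZD3 region of 6.83 lay nearer to FBXO16, and the other JUNB region of FZD3, at 3.48, would place it last. The FZD4 region of 5.66 lay inside PRSS23. By their highest FOSL2 value the order was FZD6 (11.3), FZD1 (10.8), FZD7 (8.09), FZD4 (7.38), FZD3 (6.12), FZD2 (5.89), FZD5 (5.16) and FZD10 (3.71). Without values per library it cannot be said which neighbours in these orders differ. The median over the member regions was 4.94 for JUNB, against 4.79 over the list, and 4.56 for FOSL2, against 5.56. The JUNB median counts the FZD1 region, known to be strong beforehand, so its small excess over the list is no result about the receptors. For shared regions the median over members was 5.16, against 5.31 over the JUNB list, and 7.74, against 7.85 over the FOSL2 list. For JUNB-only regions it was 4.29, against 3.45 over that class, with the FZD3 and FZD2 regions at the 96.9th and 90.1st percentiles of the class. The FZD4 regions (3.36 and 2.32) were at the 47.0th and 3.56th and the FZD6 region (2.64) at the 13.7th. This median also counts FZD1, known to be strong when the family was picked, so it is no result about the receptors. For FOSL2-only regions it was 3.56, against 4.40.

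**Figure D3:**
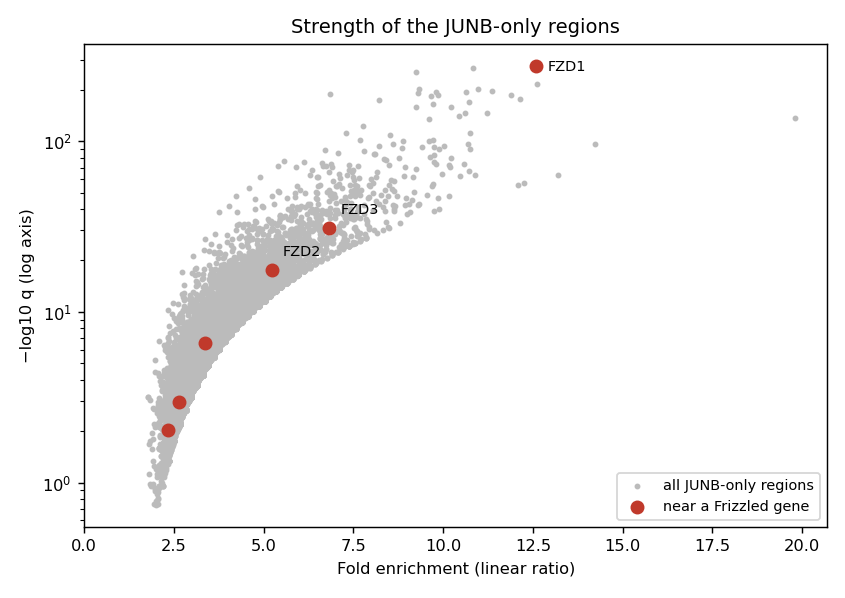
Fold enrichment (x axis, linear ratio) is plotted against −log10 q (y axis, log scale) for the 8620 JUNB-only regions in grey and the 6 near Frizzled genes in red. FZD1 lies at the top of the cloud with a −log10 q of 276, and the other 5 points have values of 30.9 or less.

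Among the 2672 protein-coding genes with a JUNB-only summit within 1 kb of an end, FZD1 ranked 3 by the fold enrichment of that summit, FZD2 280 and FZD6 2472. To find genes with a pattern like that of FZD1, genes with exactly 1 JUNB-only, 1 shared and 0 FOSL2-only regions within 20 kb were listed, which gave 323. Of these, 45 had a JUNB-only summit within 100 bp of an end. The 3 nearest to FZD1 in log2 fold enrichment were PIAS3, a SUMO ligase that inhibits STAT3 (9.72), DNAJC28, which encodes a J-domain protein (8.65), and SLC25A36, a mitochondrial nucleotide carrier gene (7.25). All 3 values were lower than the 12.6 of FZD1.

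The rest of the Wnt pathway, 75 genes in 8 lists by role, had regions in a larger share of genes than the receptors. SMO, a relative of the Frizzled proteins from the Hedgehog pathway, is counted among the 75. A FOSL2 region lay near 69 of the 75 genes (92.0%) and a JUNB region near 59 (78.7%), against the 84.9% and 72.3% of all genes given above. Many of these genes are long, and the difference from the receptors was not tested. A JUNB-only summit within 1 kb of an end was present in 11 of the 75 genes, with fold enrichments up to 4.99 at GSK3A, which encodes a kinase of the beta-catenin destruction complex. FZD1 (12.6) and FZD2 (5.22) had the highest such values of all Wnt pathway genes examined. The place of FZD1 was known when the family was picked, so it is no result about the receptors. Without values per library it cannot be said whether FZD2 and GSK3A differ.

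Of the 19 Wnt ligand genes, 17 had a FOSL2 and 16 a JUNB region. WNT7B, a ligand gene active in epidermis, had a shared site of 11.8 (JUNB list) and 11.4 (FOSL2 list), and WNT2B reached 9.12 in the JUNB list through a JUNB-only region. WNT3 reached 11.8 in the FOSL2 list through a FOSL2-only region. WNT7A reached 11.4 there, and WNT11 had no region. The ligand secretion genes PORCN, for the acyltransferase that lipidates Wnt, and WLS, for its carrier, both had regions of both factors. WLS reached 8.62 in the JUNB list at a shared site and 11.7 in the FOSL2 list through a FOSL2-only region.

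All 7 co-receptor and related receptor genes had shared regions. LRP5 had 4 JUNB regions up to 7.25 and LRP6 had 2 up to 6.18, while ROR1, a receptor of Wnt5a, had 11 up to 8.40 and PTK7 5 up to 7.96. In the FOSL2 list ROR1 and PTK7 reached 11.7 and 11.3. SMO, a Hedgehog pathway protein and no Wnt receptor, is the nearest relative of the Frizzled proteins. It had 1 shared pair of 6.07 (JUNB list) and 8.79 (FOSL2 list). Its summits stood 3605 bp (JUNB) and 3491 bp (FOSL2) from an end, so SMO had neither the JUNB-only start of FZD1 nor the empty flanks of FZD8.

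The antagonist list, mostly of secreted proteins such as the SFRP proteins with a Frizzled-like cysteine-rich domain, had a region in the lowest share of genes among the 9 lists. It also holds KREMEN1 and KREMEN2, which encode membrane proteins and had regions of both factors. A FOSL2 region lay near 9 and a JUNB region near 5 of these 13 genes. SFRP1, SFRP2, SFRP5 and WIF1 had none of either factor. DKK1 and DKK3, the Dickkopf genes with the highest JUNB values here, reached 7.63 and 7.62 in the JUNB list and 8.18 and 7.71 in the FOSL2 list.

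All 9 genes of the R-spondin and Frizzled turnover list had a FOSL2 region and 7 had a JUNB region. LGR6 and LGR4, receptors of R-spondins, reached 9.34 and 8.24 in the JUNB list, and LGR5 and LGR6 10.3 and 10.1 in the FOSL2 list. The ubiquitin ligase genes ZNRF3 and RNF43, whose products remove Frizzled from the membrane, reached 7.73 and 6.77 in the JUNB list. All 10 cytoplasmic genes had a FOSL2 and 9 a JUNB region. AXIN1 reached 13.9 in the JUNB list at a site 17924 bp from an end, and DVL1, a Dishevelled gene, 11.4 at a shared site. In the FOSL2 list DVL1 reached 11.9 elsewhere, through a FOSL2-only region. CTNNB1, which encodes beta-catenin, had 3 FOSL2-only regions up to 12.1 and no JUNB region.

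All 8 nuclear effector genes had a FOSL2 region and 6 a JUNB region, with 10.6 at TCF7L2 and 8.69 at BCL9 in the JUNB list. LEF1 had 1 FOSL2-only region of 11.7 and no JUNB region, and TCF7 reached 11.2 in the FOSL2 list. All 7 planar polarity partners of FZD3 and FZD6 had regions of both factors, led by CELSR2 with 9.52 and CELSR1 with 7.96 in the JUNB list and by PRICKLE1 and PRICKLE2, each at 11.6, in the FOSL2 list. The shares of the whole receptor list were 80.0% for FOSL2 and 60.0% for JUNB. Of its 8 genes under 10 kb, 6 had a FOSL2 and 4 a JUNB region. Among all protein-coding genes of that length the shares were 73.2% and 59.3%.

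**Figure D4:**
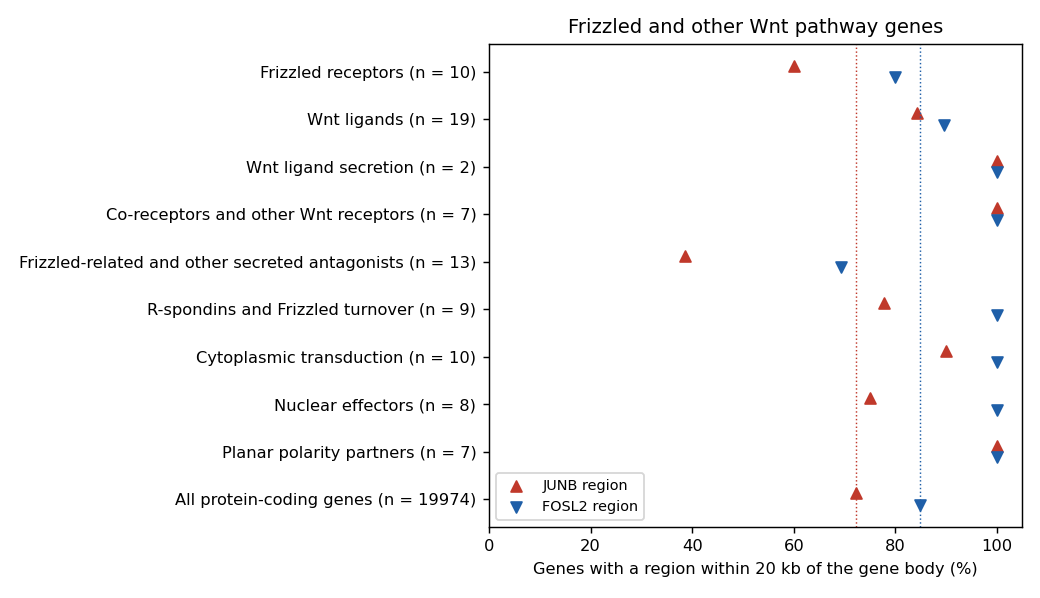
The x axis gives the share of genes (%) in each list with a JUNB region (red, upward) or a FOSL2 region (blue, downward) within 20 kb of the gene body, and dotted lines give the shares over all protein-coding genes. Frizzled receptors (60.0 and 80.0%) and the list labelled secreted antagonists (38.5 and 69.2%) lie left of both lines. The latter also holds the membrane protein genes KREMEN1 and KREMEN2.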

How the data were processed

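The ChIP-seq of both factors was deposited as 1 narrow peak list per factor, each made from 3 libraries, in hg38. Bowtie2, SAMtools 1.8, Picard 1.89, MACS2 and deepTools are named in the submitters' processing notes. Their order, the control and the rule that combined libraries were not stated in these sources. The deposited fold enrichment is a linear ratio of signal over background, and the deposited −log10 q is that of the peak caller. A region missing from a list may have been bound below the authors' threshold.

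Rows outside the autosomes and X (1 FOSL2 row) were left out. Gene spans came from RefSeq GRCh38.p14, with strand only from the promoter windows. Shared means at least 1 bp in common. Regions were assigned in Python 3.11.15 with pandas 2.3.3, by code tested on simulated data. Every region of the 10 members is named. In each other Wnt list the rule took the 2 genes highest in each list of regions and up to 3 genes without a region, with SMO, LRP5, LRP6 and CTNNB1 always. GSK3A, WIF1, ZNRF3, RNF43, KREMEN1 and KREMEN2 were named outside it, after their values were seen. Genes like FZD1 were taken by the numbers of regions. Members and lists were chosen with earlier results of these data known.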

Additional observations from a re-analysis of the deposited data

How the results depend on the processing

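Of 89 recomputed counts, 58 stayed within 1.5 times the reported one. Among them were all counts with 50% reciprocal overlap, with summits within 100 bp, and with each region given to its nearest protein-coding gene. So were all counts with only regions within 20 kb of a gene end, inside or outside the gene. For members other than FZD3 that setting equals the main window, because the genes are short, so it could not move their counts. Within 5 kb in place of 20 kb, Frizzled genes numbered 3 with FOSL2, 2 with shared and 1 with FOSL2-only regions, and regions 7 for JUNB, 3 for FOSL2 and 2 shared. Within 10 kb these were 3, 2 and 1 genes, and 7, 4 and 2 regions. Within 50 kb there were 31 JUNB, 41 FOSL2, 11 JUNB-only and 20 shared regions. With a −log10 q of at least 10, JUNB-only regions fell to 3 at 3 genes, JUNB regions to 7 and FOSL2 regions to 9. With the 10000 regions of highest fold enrichment per list, 2 Frizzled genes had JUNB, 2 FOSL2, 1 a shared, 2 a JUNB-only and 1 a FOSL2-only region. The regions were then 3 for JUNB, 3 for FOSL2, 2 JUNB-only and 1 shared, and other Wnt genes 36 for JUNB and 29 for FOSL2. How much of each move came from the size of the window or list was not tested. From 20 to 10 kb, Frizzled genes with a FOSL2 region fell from 8 to 3, and the share over protein-coding genes of any length from 84.9% to 76.9%. The FZD1 summit was 3 bp from both the end of the gene span and the transcription start, which are the same base, so this value could not change. Of the matched Frizzled windows, 0 held either AP-1 motif. No paired analysis was possible because the lists hold no value per library. For the same reason no library could be left out, and depth is unknown.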
